A study of Rattus norvegicus with 12 samples.

Results

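The genes described here are the rat splicing factors whose symbols start with Srsf, Snrp, Sf3a, Sf3b or Hnrnp, measured in hepatocytes of heart-beating donors and of donors that had been dead for 4, 16 or 30 h. A probe set, the group of array probes that reports 1 value for a transcript, was taken as a member when the array's annotation gave it 1 gene symbol and that symbol began with one of these names. This gave 75 probe sets of 47 genes, out of 20826 probe sets of 14217 genes with 1 symbol. The Srsf genes supplied 20 probe sets of 11 genes, the Snrp genes 11 of 10 genes, the Sf3 genes 13 of 9 genes and the Hnrnp genes 31 of 17 genes. All 75 gene IDs and symbols were found in the RefSeq annotation of the rat assembly GRCr8, where Srsf7-ps4 is listed as a pseudogene of Srsf7. Of the 47 genes, 32 had 1 probe set, 7 had 2, 5 had 3, and the most for any gene was 5. Another 8 probe sets carried a member symbol beside a further symbol, such as Hnrnpk with its pseudogene, and were not counted as members.

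Splicing removes introns from a new transcript in a complex built from small nuclear RNAs and proteins. Snrp genes encode proteins of these particles, among them the Sm proteins that form a ring on the RNA, and Sf3a and Sf3b genes encode the subunits of the U2 particle that holds the branch site of the intron. SR proteins, encoded by Srsf genes, bind exons and favour their inclusion, while the hnRNP proteins coat new transcripts, often favour skipping, and also act in RNA export, stability and translation. Many SR protein and hnRNP genes make alternative transcripts of their own, some with retained introns or extra exons that cut the reading frame.

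All donors were rats of the strain the labels give as Fischer 334, with 3 animals in each of the 4 groups and 1 array per animal, so n = 3 per group throughout. The controls were heart-beating donors, and the other groups were non-heart-beating donors whose hepatocytes were isolated 4, 16 or 30 h after death. Livers of every group were perfused with collagenase in 2 steps, and total RNA was taken from the hepatocytes without culture. The labels give neither the cause of death nor the sex, age or storage of the animals, and the design asks what the interval since death does to the transcripts of recovered hepatocytes.

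Hepatocyte markers were high in all arrays. The mean log2 signal of 16 such markers was between 12.48 and 12.62 in the controls and between 12.24 and 12.41 at 30 h, and reached 12.67 at 16 h. At 30 h 1 of the 16 was higher and 3 were lower. Markers of other cells were also measured and some moved with time. Of 17 Kupffer cell markers 7 fell at 16 h and 10 fell at 30 h, and their mean log2 signal, which was 8.36 to 8.41 in the controls, was 7.88 to 8.09 in the arrays at 16 h and 7.67 to 7.90 at 30 h. At 16 h 3 of 9 erythroid markers rose (mean log2 signal 7.56 to 7.77), among them Hbb, a hemoglobin chain, by 3.61-fold and Alas2, of erythroid heme synthesis, by 5.47-fold. So did 3 of 13 endothelial markers (7.82 to 7.87), with Lyve1 at 1.84-fold, and 2 of 14 stellate and fibroblast markers (7.20 to 7.29), while 1 other of the 14 fell. No lymphocyte or cholangiocyte marker was called at 16 h. At 30 h 5 of 9 erythroid markers rose (mean log2 signal 6.88 to 7.02 in heart-beating donors and 7.59 to 8.04 at 30 h), as did 6 of 14 stellate and fibroblast markers (6.84 to 7.11 and 7.20 to 7.55), 2 of 13 endothelial markers (7.50 to 7.60 and 7.44 to 7.82), 1 of 14 lymphocyte markers (6.01 to 6.08 and 6.03 to 6.18) and none of 6 cholangiocyte markers (5.04 to 5.07 and 5.04 to 5.17). RNA quality moved with time too. Degraded RNA reads lower at the 5' than at the 3' control probes of a transcript, and for Gapdh this log2 gap was 0.39 ± 0.08 (SD) in the controls and 0.38 ± 0.10 after 4 h. It was 1.05 ± 0.20 after 16 h and 1.97 ± 0.29 after 30 h. In the exact two-sided permutation test against heart-beating donors p was 1, 0.1 and 0.1, and 3 values against 3 allow no p below 0.1. The part of the cell markers in the results on splicing factors was not tested, and a fit with the Gapdh gap is given with the 30 h results. Fewer cells of a type and less RNA per cell cannot be told apart in these bulk samples.

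Of the 75 splicing factor probe sets none was called at 4 h, 6 at 16 h and 39 at 30 h. A probe set was called when limma gave it a Benjamini-Hochberg adjusted p under 0.05 over all 31042 probe sets tested. At 4 h 7 of all probe sets were called (0.0226%). The smallest adjusted p of a member was 0.92, 3 members had an unadjusted p under 0.05, and the median log2 difference of the members was -0.02. Of all probe sets 4.67% were called at 16 h, and of the brighter 50% of them by mean signal 8.01%. At 16 h 4 members rose and 2 fell (8% called). At 30 h 23 rose (30.7%), 16 fell (21.3%) and 36 did not pass the test, with log2 differences from -1.45 for Sf3b5 to 1.13 for Srsf11. The shares of all probe sets called at 30 h were 10.4% higher and 9.36% lower, and among probe sets with 1 gene symbol 11% higher and 11.6% lower. The median log2 difference at 30 h was 0.10 for the members and 0.01 for all probe sets.

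**Figure D1:**
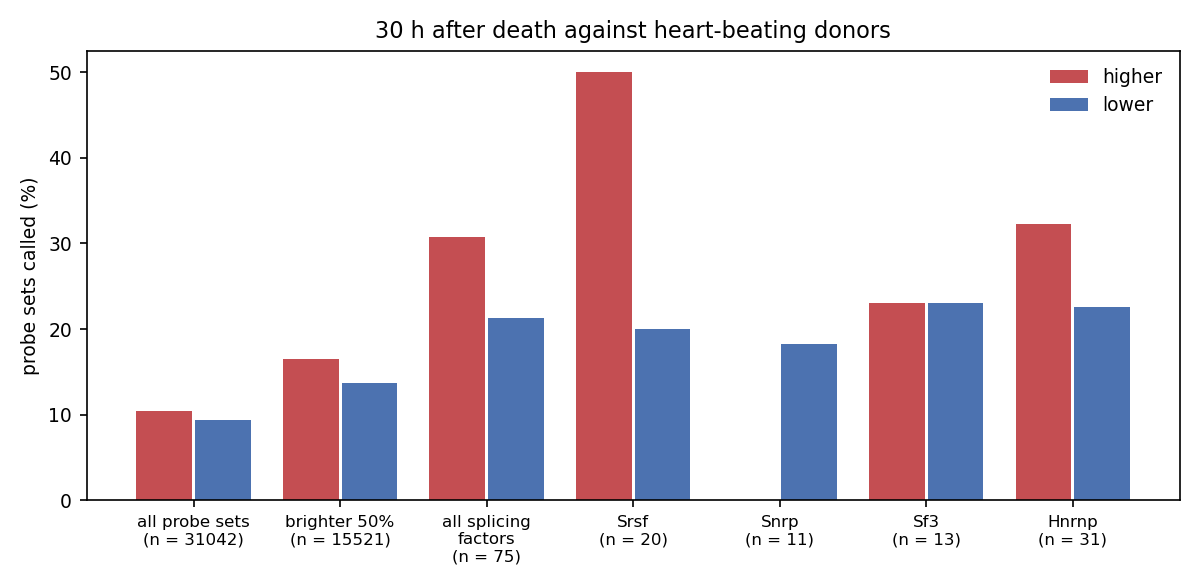
Bars give the percentage of probe sets called higher (red) or lower (blue) at 30 h against heart-beating donors in limma at an adjusted p under 0.05, for all probe sets, the brighter 50% of them, all splicing factors and each family, with the number of probe sets under each name. Of all probe sets 10.4% were called higher and 9.36% lower, and of the 20 Srsf probe sets 50% and 20%.

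Bright probe sets are called more readily, and the members were brighter than most. Among the brighter 50% of all probe sets by mean signal, 16.5% were called higher and 13.7% lower at 30 h. The 63 members in that range had 22 higher (34.9%) and 11 lower (17.5%). They were still brighter than the range as a whole, with a median log2 signal of 8.10 against 7.19, so brightness was matched only in part. Taken 1 probe set per gene, by the highest mean signal, 15 of the 47 genes were higher (31.9%) and 10 lower (21.3%), against 12.5% and 10.5% of all 14217 genes. With every probe set counted, 16 genes had only higher calls, 11 only lower calls, 2 had calls both ways and 18 had none. The moderated F test of limma over the 3 comparisons with heart-beating donors called 38 of the 75 members (50.7%) and 21.3% of all probe sets.

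The counts at 30 h depended on single arrays and changed when RNA quality entered the fit. Without heart-beating replicate 3, 13 members were called higher and 10 lower, and without 30 h replicate 2, 15 were higher. Of the 39 called members, 20 stayed called whichever array was left out, and the losses are given with each of the others. With the Gapdh gap as a covariate, none of the 31042 probe sets was called at 30 h, in place of 6130, the median standard error of the members went from 0.094 to 0.326, and 28 of the 39 called members kept their direction. The gap was larger in every 30 h array than in any heart-beating array, so time after death and RNA quality cannot be told apart by this fit.

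**Figure D2:**
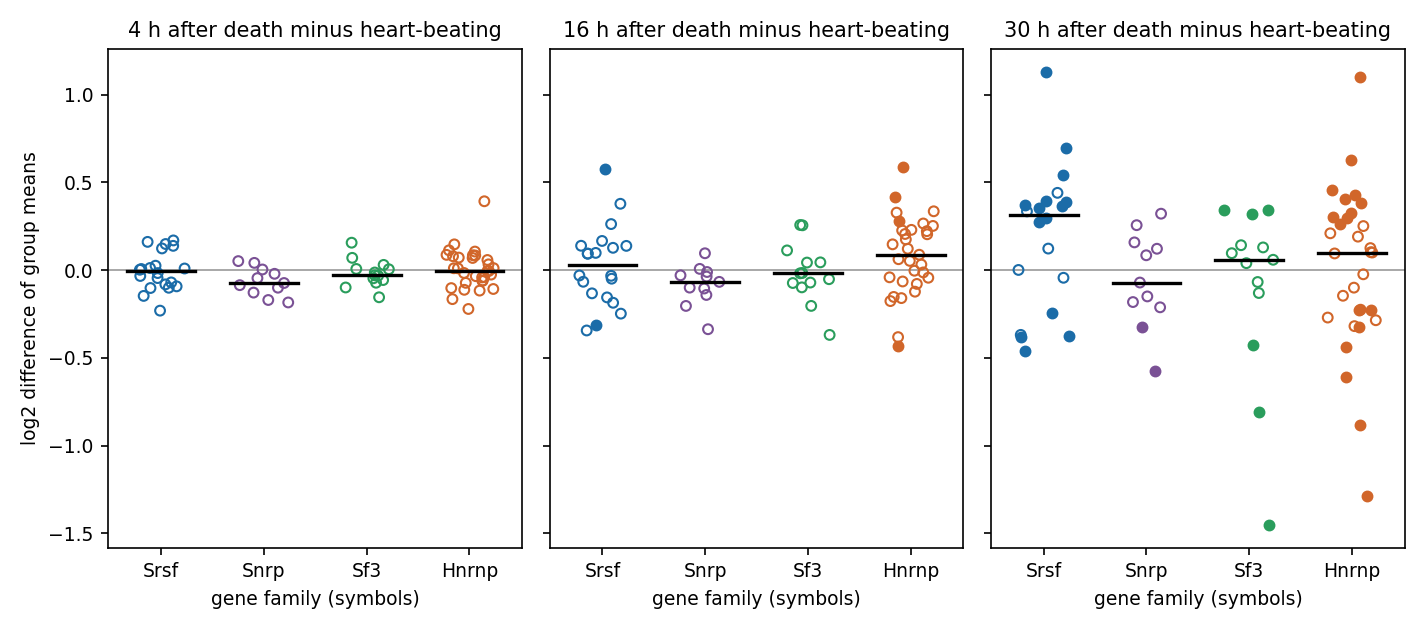
Each point is 1 probe set of a splicing factor, placed by its log2 difference of group means (vertical axis) in its family, with 1 panel for each time against heart-beating donors. Filled points were called in limma at an adjusted p under 0.05 (none at 4 h, 6 at 16 h and 39 at 30 h), and black lines are family medians, which at 30 h were 0.32 for Srsf, -0.07 for Snrp, 0.06 for Sf3 and 0.10 for Hnrnp.

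By single probe sets, the largest rises at 30 h were in Srsf11 and Hnrnpu and the largest falls in Sf3b5 and Hnrnpa2b1. Hnrnpa2b1 fell with 1395561_at only, while 1398883_at and 1373540_at were called higher and 1378543_at was not called. The mean over its probe sets differed by -0.10 in limma (adjusted p = 0.34). The promoters of these 4 genes are shown because their probe sets mark both ends of the range. Each stretch is the 250 bases before the annotated start, from RefSeq on GRCr8, written 5' to 3' on the gene's strand. Capitals mark the letters of motifs that were searched for on both strands. These were the TATA box, spelled TATAAA, the CCAAT box, spelled as its name says, the GC box with the letters GGGCGG, the site of ETS factors, for which the letters CCGGAAG were used, and the cAMP response element with TGACGTCA.
Srsf11, chr2:249760259-249760508, minus strand: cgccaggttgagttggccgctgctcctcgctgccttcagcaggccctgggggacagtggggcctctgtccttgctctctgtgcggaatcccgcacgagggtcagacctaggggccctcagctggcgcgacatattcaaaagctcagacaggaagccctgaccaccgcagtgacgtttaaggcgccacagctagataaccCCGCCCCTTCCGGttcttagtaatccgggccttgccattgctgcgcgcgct
Hnrnpu, chr13:92618581-92618830, minus strand: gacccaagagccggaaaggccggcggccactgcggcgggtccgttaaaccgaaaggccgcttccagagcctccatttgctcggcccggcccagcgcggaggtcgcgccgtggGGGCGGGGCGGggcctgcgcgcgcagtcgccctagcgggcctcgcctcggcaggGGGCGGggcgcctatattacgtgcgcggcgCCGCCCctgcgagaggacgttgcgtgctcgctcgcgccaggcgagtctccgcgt
Sf3b5, chr1:9176939-9177188, plus strand: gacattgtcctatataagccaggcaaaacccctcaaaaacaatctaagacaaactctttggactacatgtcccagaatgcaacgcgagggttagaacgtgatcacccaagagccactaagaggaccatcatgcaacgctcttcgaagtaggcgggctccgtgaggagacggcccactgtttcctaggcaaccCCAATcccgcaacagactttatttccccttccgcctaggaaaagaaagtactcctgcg
Hnrnpa2b1, chr4:81875887-81876136, minus strand: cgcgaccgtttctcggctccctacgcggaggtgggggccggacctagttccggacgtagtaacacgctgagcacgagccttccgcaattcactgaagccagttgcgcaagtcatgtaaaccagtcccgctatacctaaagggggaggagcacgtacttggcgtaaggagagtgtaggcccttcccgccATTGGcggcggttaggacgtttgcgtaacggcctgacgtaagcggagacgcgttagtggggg

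In Srsf11 a GC box and an ETS site lie side by side, and in Hnrnpu there are 4 GC boxes, the first pair sharing a base. Sf3b5 and Hnrnpa2b1 each hold 1 CCAAT box in the stretch shown. Promoters were found for 44 of the 47 genes, all but Hnrnpll, Sf3b2 and Srsf7-ps4, and were searched with the 50 bases after the start included. A GC box was in 28 of the 44 (63.6%) against 41.8% of 21851 promoters of protein-coding genes, and CCAAT in 24 (54.5%) against 38%. The ETS letters were in 14 (31.8%) against 10.7%, TATAAA in 5 (11.4%) against 13%, and TGACGTCA in none against 2.1%. Members' promoters had a median GC content of 60.7% against 55%, and a match to these letters is a description of the sequence alone.

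Among the SR protein genes, rises outnumbered falls. Of 20 Srsf probe sets, 10 rose at 30 h (50%), 4 fell (20%) and 6 did not pass the test, with a median log2 difference of 0.32. Among all probe sets 10.4% rose and 9.36% fell, and among the brighter 50% of them 16.5% and 13.7%. The Srsf share of rises was not tested against that of the other families. At the level of genes, 6 of 11 had only higher calls, Srsf7 had a lower call, Srsf10 had both, and Srsf3, Srsf4 and Srsf5 had none.

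Srsf11 encodes an SR-related protein that binds the U2 auxiliary factor. Its probe set 1382056_at read log2 signals of 7.28, 7.17 and 7.26 in heart-beating donors, 7.14, 7.45 and 7.52 at 4 h, 7.60, 7.64 and 7.59 at 16 h, and 8.61, 8.45 and 8.03 at 30 h. All 3 arrays at 30 h lay above all others. The difference at 30 h was 1.13 (SE 0.13), or 2.19-fold, with an adjusted p of 8.4e-05, and the other probe set of the gene, 1368212_at, rose by 0.37 (adjusted p = 0.0046).

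Srsf1 is the founding SR protein and acts in splicing, export and translation. Its probe set 1374072_at read 7.75, 7.82 and 7.60 in heart-beating donors, 7.90, 8.08 and 7.66 at 4 h, 7.66, 7.95 and 7.97 at 16 h, and 8.19, 8.58 and 8.47 at 30 h. The 30 h arrays lay above all others, by a mean difference from heart-beating donors of 0.70 (SE 0.13, adjusted p = 0.0019), and 1371581_at rose by 0.40 (adjusted p = 0.013, but 0.055 without heart-beating replicate 2). Srsf2, also called SC35 and a marker of nuclear speckles, read 9.96, 9.88 and 9.79 in heart-beating donors by 1371838_at, 9.81, 10.02 and 9.82 at 4 h, 9.92, 10.13 and 9.99 at 16 h, and 10.52, 10.51 and 10.23 at 30 h. Again the 30 h arrays did not overlap with the others, and the log2 difference was 0.54 (adjusted p = 0.0014). The second Srsf2 probe set, 1371839_at, had a difference of -0.37 that did not pass the test (adjusted p = 0.11). The mean over both Srsf2 probe sets differed by 0.087 in limma and was not called (adjusted p = 0.64).

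Srsf6, an SR protein with a pair of RNA recognition motifs, rose at 30 h by 0.39 with 1371999_at (adjusted p = 0.0064) and by 0.30 with 1372075_at (adjusted p = 0.024). The latter call was lost without 30 h replicate 1 (adjusted p = 0.05013), 30 h replicate 2 (0.082), heart-beating replicate 2 (0.095) or heart-beating replicate 3 (0.070). Srsf9, a short SR protein related to Srsf1, rose by 0.36 (adjusted p = 0.014), which missed the threshold without 30 h replicate 2 (0.0505) or heart-beating replicate 1 (0.059). The pseudogene Srsf7-ps4 rose by 0.27 (adjusted p = 0.033), a call lost without any heart-beating array or without 30 h replicate 1 or 2 (adjusted p from 0.053 to 0.109). Srsf7 itself, an SR protein with a zinc knuckle, fell by 0.38 (adjusted p = 0.0076). The gene and its pseudogene may share probes, so their values are uncertain, and both were dim, with array values from 3.89 to 4.43 and from 4.50 to 5.01.

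Among SR genes that were not called at 30 h, Srsf5 read 10.14, 10.12 and 9.36 at 30 h against 9.45, 9.37 and 9.48 in heart-beating donors. One array of the 3 thus lay below the controls, and the difference of 0.44 had an adjusted p of 0.065. Srsf4, a large SR protein of the same subgroup, was called at 16 h but not at 30 h, where its difference was 0.33 (adjusted p = 0.091). Srsf3, the smallest SR protein, had a difference of 0.12 (adjusted p = 0.34) from its probe set with 1 symbol.

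Among the genes for core particle proteins, 0 of 11 Snrp probe sets rose and 2 fell (18.2%) at 30 h, with a median log2 difference of -0.07. The share called was near that of all probe sets, 19.7%, but below the 30.2% of the brighter 50% of them by mean signal. The Snrp probe sets were bright, with a median log2 signal of 8.20 against 7.19 in that range. These shares were not tested against each other. The 2 that fell were Snrpa1, the U2 particle's A' protein, and Snrpb, an Sm protein. Snrpa1 read 7.18, 7.21 and 7.0015 in heart-beating donors, 6.88, 7.08 and 6.88 at 4 h, 7.01, 6.71 and 6.67 at 16 h, and 6.39, 6.79 and 6.49 at 30 h. All 3 arrays at 30 h were below all 3 of the heart-beating donors, by a mean of 0.58 (difference -0.58, SE 0.12, adjusted p = 0.0037). Snrpb fell by 0.33 (adjusted p = 0.032), and the call was lost without heart-beating replicate 2 (0.085) or 3 (0.127) or without 30 h replicate 1 (0.115) or 3 (0.052).

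The other Sm protein genes did not pass the test. Snrpe read 10.49, 10.49 and 10.54 in heart-beating donors and 10.61, 10.63 and 10.53 at 30 h, a difference of 0.08 (SE 0.06) with groups that overlapped. Snrpd2 had a difference of -0.07 and Snrpd3 of -0.21. Snrpf had 0.32 (adjusted p = 0.053), and the 2 probe sets of Snrpd1 had 0.12 and 0.26. The remaining members were Snrpa, the U1 particle's A protein, with -0.18, Snrpb2, the U2 particle's B'' protein, with 0.16, and Snrpn, a close relative of Snrpb, with -0.15. A p above the threshold does not show that these levels were alike in the groups.

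At 30 h, 3 of the 13 probe sets for subunits of the U2 particle's Sf3a and Sf3b complexes rose (23.1%). Another 3 fell (23.1%) and 7 did not pass the test. For all probe sets the shares were 10.4% higher and 9.36% lower, and for the brighter 50% of them 16.5% and 13.7%. The falls of Sf3b5 and Sf3b6, both small subunits of Sf3b, were larger than any of the rises.

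Sf3b5, a small structural subunit of Sf3b, read 8.52, 8.32 and 8.38 in heart-beating donors, 8.24, 8.47 and 8.30 at 4 h, 8.29, 7.93 and 7.89 at 16 h, and 6.57, 7.18 and 7.10 at 30 h. The 30 h arrays lay below all others, and the log2 difference was -1.45 (SE 0.15, adjusted p = 3.6e-05), a level 2.74-fold lower. Sf3b6, the subunit also called p14 that lies next to the branch site adenosine, read 9.55, 9.48 and 9.57 in heart-beating donors, 9.53, 9.45 and 9.45 at 4 h, 9.46, 9.27 and 9.27 at 16 h, and 8.56, 8.95 and 8.67 at 30 h. It too was lowest in the 3 arrays at 30 h, by -0.81 (SE 0.09, adjusted p = 8.2e-05) or 1.75-fold lower.

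Sf3a3, a subunit of Sf3a, was the third that fell, by 0.43 (adjusted p = 0.018, and 0.052 to 0.064 without heart-beating replicate 2 or 3 or 30 h replicate 1). The rises were in Sf3a2, another Sf3a subunit, with 0.34 (adjusted p = 0.0045), in Sf3b3, a large propeller-shaped scaffold of Sf3b, with 0.32 (adjusted p = 0.018), and in 1 of 3 probe sets of Sf3b1, 1389840_at, with 0.34 (adjusted p = 0.032). The call of Sf3b3 was lost without heart-beating replicate 3 (0.083) or 30 h replicate 2 (0.062), and that of Sf3b1 without heart-beating replicate 2 (0.109) or 3 (0.098) or 30 h replicate 1 (0.066) or 2 (0.101). Sf3b1 is the largest Sf3b subunit and clamps the branch site helix. Its probe set 1390234_at read 9.32, 9.46 and 9.15 in heart-beating donors and 9.36, 9.58 and 9.42 at 30 h, which overlapped (difference 0.14, adjusted p = 0.28), and 1382691_at was dim, with array values from 3.21 to 3.51. Sf3a1, Sf3b2 and Sf3b4 did not pass the test, with differences from -0.13 to 0.13.

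**Figure D3:**
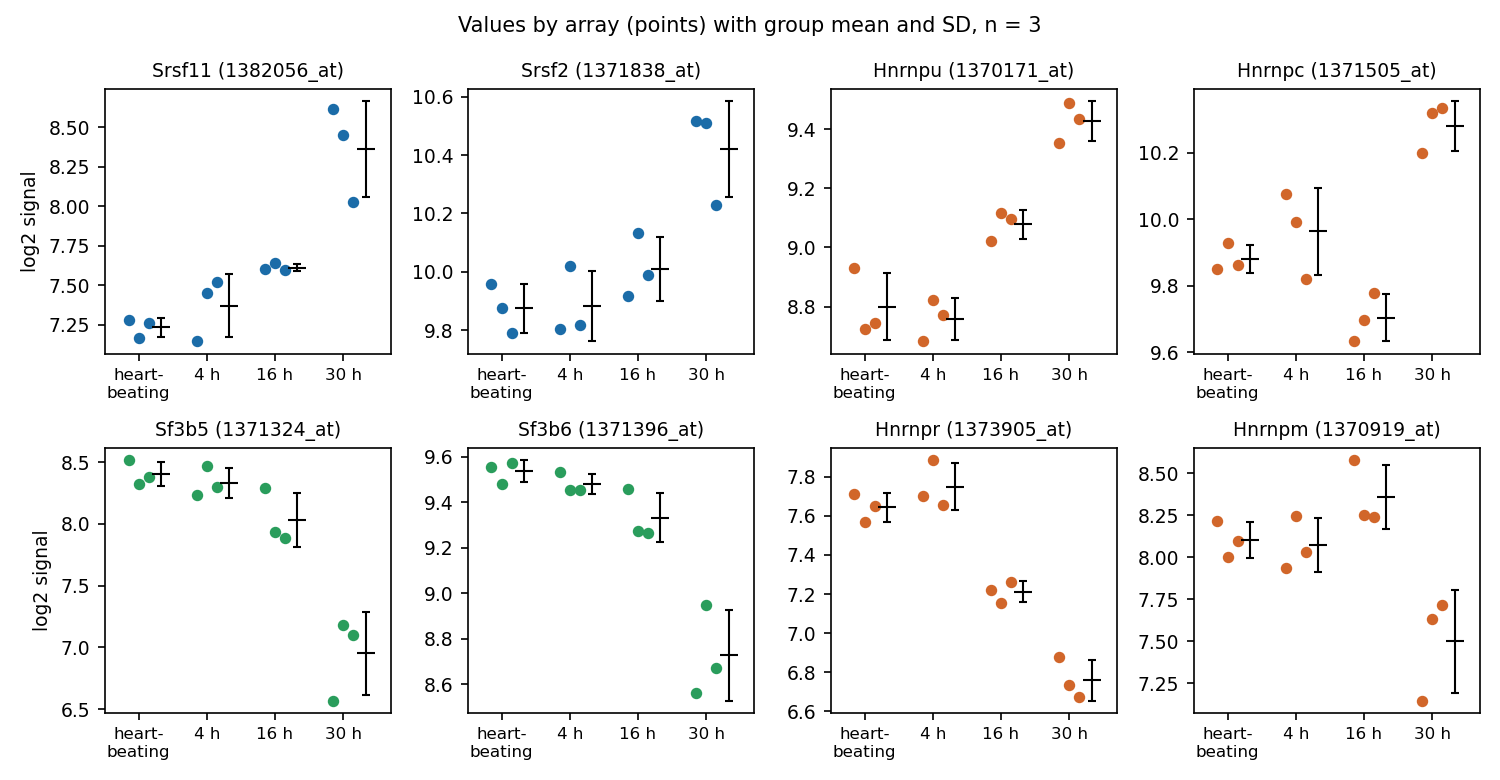
Points are log2 signals of single arrays for 8 probe sets of splicing factors, with the group mean and SD (n = 3) beside them, and each panel has its own vertical axis, which does not start at 0. In the upper row (Srsf11, Srsf2, Hnrnpu, Hnrnpc) all 3 arrays at 30 h lie above all others, and in the lower row (Sf3b5, Sf3b6, Hnrnpr, Hnrnpm) below all others.

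The Hnrnp genes split both ways. Of 31 probe sets, 10 rose at 30 h (32.3%), 7 fell (22.6%) and 14 did not pass the test. The shares were 10.4% and 9.36% for all probe sets, and 16.5% and 13.7% for the brighter 50% of them. Of the 17 genes 7 had only higher calls, 5 only lower calls and Hnrnpa2b1 both.

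Hnrnpu, a nuclear scaffold protein that binds RNA and chromatin, rose with 2 of its 3 probe sets. With 1372823_at it read 6.42, 6.67 and 6.51 in heart-beating donors, 6.89, 6.89 and 6.995 at 4 h, 7.16, 7.23 and 6.97 at 16 h, and 7.99, 7.73 and 7.19 at 30 h. Every array after death lay above the heart-beating donors, and 30 h replicate 3 lay below the highest array at 16 h. The difference at 30 h was 1.10 (SE 0.15, adjusted p = 0.00036), or 2.14-fold. With 1370171_at it read 8.93, 8.72 and 8.74 in heart-beating donors, 8.68, 8.82 and 8.77 at 4 h, 9.02, 9.12 and 9.10 at 16 h, and 9.35, 9.49 and 9.44 at 30 h. Here the 16 h arrays lay between the earlier groups and the 30 h arrays with no overlap, and the difference at 30 h was 0.63 (SE 0.07, adjusted p = 8.8e-05).

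Hnrnpc, which binds long introns and counts among the core hnRNP proteins, read 9.85, 9.93 and 9.86 in heart-beating donors, 10.07, 9.99 and 9.82 at 4 h, 9.63, 9.70 and 9.78 at 16 h, and 10.20, 10.32 and 10.34 at 30 h. The 30 h arrays were the highest and the 16 h arrays the lowest, and the difference at 30 h was 0.40 (SE 0.07, adjusted p = 0.0022). Hnrnph3, of the family that binds runs of G, rose by 0.45 with 1375019_at (adjusted p = 0.0036), while 1395455_at differed by 0.10 (adjusted p = 0.58). Hnrnph1 rose by 0.30 (adjusted p = 0.047), with arrays that overlapped and a call that held in only 2 of the 12 fits without 1 array (adjusted p from 0.056 to 0.193 in the other 10). Hnrnpa1, a shuttling protein that represses exon inclusion, rose with 1372693_at from 9.15, 9.24 and 8.87 to 9.59, 9.56 and 9.38 at 30 h. The groups did not overlap (adjusted p = 0.014), and the call was lost without heart-beating replicate 3 (adjusted p = 0.070). Its other 2 probe sets did not pass the test, with differences of -0.23 for 1375612_at (adjusted p = 0.20) and -0.15 for 1387872_at (adjusted p = 0.34), and the mean over the 3 differed by 0.018 (adjusted p = 0.91). Hnrnpl, which binds CA repeats, rose by 0.30 (adjusted p = 0.013), and without heart-beating replicate 2 or 3 its adjusted p was 0.056.

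Hnrnpr, a relative of Syncrip, had the smallest p of all members. It read 7.71, 7.57 and 7.65 in heart-beating donors, 7.70, 7.88 and 7.66 at 4 h, 7.22, 7.15 and 7.26 at 16 h, and 6.88, 6.73 and 6.67 at 30 h. The 16 h arrays lay below all earlier ones and the 30 h arrays below those, with a difference at 30 h of -0.88 (SE 0.08, adjusted p = 1.5e-05), or 1.84-fold lower. Hnrnpm, an hnRNP protein that binds GU-rich RNA, read 8.22, 8.003 and 8.10 in heart-beating donors, 7.94, 8.25 and 8.03 at 4 h, 8.58, 8.25 and 8.24 at 16 h, and 7.15, 7.64 and 7.72 at 30 h. Its 30 h arrays lay below all others, although the 16 h arrays were all above those of the heart-beating donors, and the difference at 30 h was -0.61 (SE 0.14, adjusted p = 0.0089).

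Hnrnpab, a relative of Hnrnpd that binds AU-rich RNA, read 10.64, 10.54 and 10.57 in heart-beating donors and 9.78, 10.36 and 10.29 at 30 h, a difference of -0.44 (adjusted p = 0.033). The call was lost without 30 h replicate 1, the lowest array (difference -0.26, adjusted p = 0.092), and without any of the heart-beating arrays (adjusted p from 0.062 to 0.095). Hnrnpa3 fell with 2 of its 5 probe sets, by 0.23 with 1388119_at (adjusted p = 0.034) and by 0.33 with 1394741_at (adjusted p = 0.010). The former call was lost without heart-beating replicate 1 (0.127), 2 (0.056) or 3 (0.063) or without 30 h replicate 1 (0.089) or 2 (0.072). Probe set 1394741_at was dim, with array values from 4.31 to 4.88. The others had differences of -0.27, -0.10 and 0.13 and were not called. The mean over the 5 differed by -0.16 in limma (adjusted p = 0.085). Hnrnpdl fell by 0.23 with 1 of 3 probe sets, 1378967_at (adjusted p = 0.048), a call kept without heart-beating replicate 1 and lost without any of the other 11 arrays (adjusted p from 0.056 to 0.191). Hnrnpa0, Hnrnpd, Hnrnpf and Hnrnpul1 did not pass the test, with differences from -0.32 for Hnrnpa0 (adjusted p = 0.055) to 0.25 for Hnrnpul1 (adjusted p = 0.11).

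Probe sets of the same gene often moved unequally at 30 h, among all genes as well as among the splicing factors. The per-array difference between the 2 brightest probe sets of a gene was tested in limma over the 4525 genes with at least 2. At 30 h it was called in 7 of the 15 splicing factor genes with several probe sets (46.7%), against 35% of all such genes, and at 16 h in 1 (6.67%), Srsf10, against 13.7%. The 7 genes were Hnrnpa1, Hnrnph3, Hnrnpu, Srsf1, Srsf10, Srsf11 and Srsf2. The difference changed most in Srsf2, from 2.09 ± 0.09 (SD) in heart-beating donors to 3.00 ± 0.18 at 30 h (change 0.91, SE 0.12, adjusted p = 1.1e-05), followed by Srsf10 with a change of 0.81 (adjusted p = 6.4e-05).

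In Hnrnpa2b1, a protein that sorts and packages RNA as well as splicing it, calls went both ways. Probe set 1395561_at read 8.14, 8.01 and 8.21 in heart-beating donors, 7.91, 8.03 and 7.75 at 4 h, 7.79, 7.58 and 7.84 at 16 h, and 6.54, 6.93 and 7.02 at 30 h. Its 30 h arrays lay far below all others, with a fall of 2.44-fold at an adjusted p of 2.1e-05. The brightest, 1398883_at, read 10.16, 10.11 and 10.14 in heart-beating donors and 10.42, 10.53 and 10.42 at 30 h, a rise of 0.32 (adjusted p = 0.018). A rise of 0.38 came from 1373540_at (adjusted p = 0.013), and 1378543_at had a difference of 0.19 that was not called (adjusted p = 0.26). Both rises were lost without single arrays: 1398883_at without heart-beating replicate 2 (0.059), heart-beating replicate 3 (0.053) or 30 h replicate 2 (0.058), and 1373540_at without heart-beating replicate 1 (0.059), heart-beating replicate 3 (0.055) or 30 h replicate 1 (0.05005).

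Srsf10, an SR protein that represses splicing when it loses its phosphates, also had calls both ways. Its brightest probe set, 1382052_at, read 6.43, 6.48 and 6.35 in heart-beating donors and 6.69, 6.87 and 6.76 at 30 h, a rise of 0.36 (adjusted p = 0.0030). By contrast 1380269_at fell by 0.46 (adjusted p = 0.014), 1393946_at by 0.38 (adjusted p = 0.013) and 1386071_at by 0.24 (adjusted p = 0.047), and 1392868_at had a difference of -0.04 (adjusted p = 0.73). Without heart-beating replicate 1 the call of 1380269_at was lost (adjusted p = 0.061), and that of 1386071_at was lost without any of 10 of the 12 arrays (adjusted p from 0.055 to 0.19). All but 1382052_at and 1380269_at had log2 signals under 5.4 in all arrays. The mean over all Srsf10 probe sets differed by -0.15 in limma and was not called (adjusted p = 0.078). In Hnrnpu the brightest probe set, 1370170_at, had a difference of 0.09 (adjusted p = 0.44) beside the rises of 1370171_at and 1372823_at. Where each set's probes lie along the transcript was not used here, so the part of distance from the 3' end in these inequalities was not tested.

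**Figure D4:**
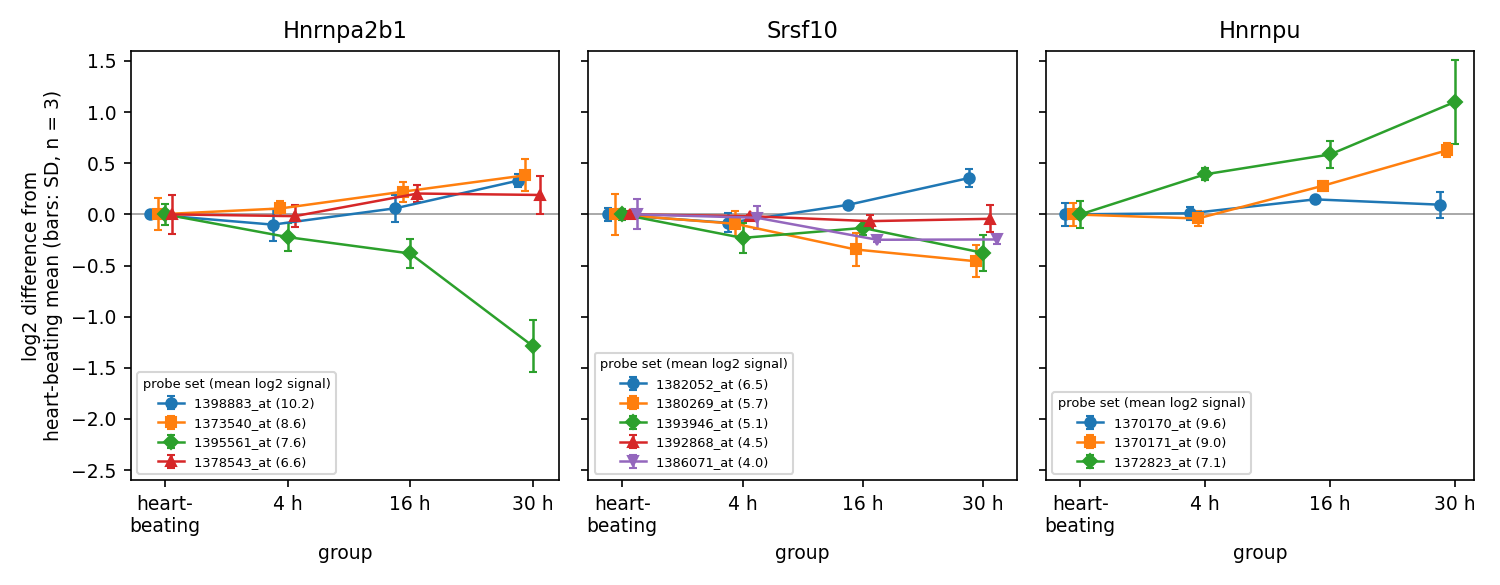
Each line is 1 probe set of Hnrnpa2b1, Srsf10 or Hnrnpu, drawn as the log2 difference of each group mean from the heart-beating mean (vertical axis) over the 4 groups (horizontal axis, spaced evenly and not by hours), with bars for the SD of 3 arrays and the mean log2 signal of the probe set in the key. In Hnrnpa2b1 1395561_at falls at 30 h while 1398883_at and 1373540_at rise, and in Srsf10 1382052_at rises while 3 of the other probe sets fall.

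At 16 h the 4 members that rose were Hnrnpu with both of its rising probe sets, Srsf4 and Hnrnpll, and the 2 that fell were Hnrnpr and Srsf6. This was 5.33% higher and 2.67% lower, against 3.18% and 1.49% of all probe sets and 3.65% and 1.8% of those with 1 symbol. Among the brighter 50% of all probe sets by mean signal, 5.92% were called higher and 2.09% lower at 16 h. The 63 members in that range had 4 higher (6.35%) and 1 lower (1.59%). The share called in that range was thus 7.94% for the members and 8.01% for all probe sets. By the brightest probe set of each gene, 2 of 47 members were higher and 1 lower, against 4.3% and 1.3% of all genes. The median log2 difference of the members was -0.01.

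Hnrnpr fell by 0.43 at 16 h (adjusted p = 0.0089), and Hnrnpu rose by 0.59 with 1372823_at (adjusted p = 0.049) and by 0.28 with 1370171_at (adjusted p = 0.045). Srsf4 read 8.53, 9.01 and 8.61 in heart-beating donors, 9.32, 9.44 and 9.10 at 16 h, and 9.09, 9.15 and 8.91 at 30 h. Its 16 h arrays lay above all 3 of the heart-beating donors, by 0.57 (SE 0.13, adjusted p = 0.024). Hnrnpll, a relative of Hnrnpl, read 7.64, 7.72 and 7.55 in heart-beating donors, 8.03, 7.96 and 8.18 at 16 h, and 7.77, 8.01 and 7.92 at 30 h, which gave rises of 0.42 at 16 h (adjusted p = 0.015) and 0.26 at 30 h (adjusted p = 0.043). Srsf6 fell at 16 h with 1 of its 3 probe sets, 1383466_at, from 5.88, 5.87 and 5.79 to 5.53, 5.50 and 5.56, by 0.31 (adjusted p = 0.031), and its values at 30 h, 5.89, 5.83 and 5.81, were close to those of the heart-beating donors. Of the 6 probe sets called at 16 h, 4 were called in the same direction at 30 h, a comparison that shares its control arrays.

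Each of these 16 h calls was lost without at least 1 array, those of Hnrnpr and Hnrnpll without 1 array only. Without heart-beating replicate 3 no member was called higher, and without 16 h replicate 2 none was called lower. Leaving out any 1 array of the heart-beating or 16 h groups, or of the 4 h group, or 30 h replicate 2, lost the call of Hnrnpu 1372823_at (adjusted p from 0.052 to 0.178), and the other calls were lost without 16 h replicate 2 for Hnrnpr (0.052), without heart-beating replicate 3 for Hnrnpll (0.079), without heart-beating replicate 1 (0.089) or 3 (0.110) or 16 h replicate 1 (0.087) or 2 (0.120) for Srsf4, and without any heart-beating or 16 h array for Srsf6 (from 0.054 to 0.124). For Hnrnpu 1370171_at the loss came without heart-beating replicate 2 or 3, any array at 4 h or 16 h, or 30 h replicate 3 (from 0.052 to 0.171). The 30 h call of Hnrnpll was lost without 7 of the 12 arrays, among them heart-beating replicate 3 (0.156) and 30 h replicate 2 (0.131). A change of scaling also moved the split at 16 h: cyclic loess gave 2 higher and 2 lower, and a further quantile normalization 1 higher and 2 lower, while the share of higher among all called probe sets went from 68.2% to 59.3% and 57.6%.

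The members with the smallest p at 4 h were Hnrnpu 1372823_at with a difference of 0.39, Srsf10 1393946_at with -0.23 and Hnrnpl with -0.17. For this Hnrnpu probe set the 4 h arrays lay above all 3 of the heart-beating donors, but its adjusted p in limma was 0.92.

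Between 16 and 30 h, 11 members rose and 6 fell, against 4.29% and 5.95% of all probe sets (14.7% and 8% of the members). Of the members' rises 8 were in Srsf genes, with 8 of 20 Srsf probe sets higher (40%) and 0 lower, while 0 of 11 Snrp probe sets passed in either direction. In the Hnrnp family 2 rose (6.45%) and 4 fell (12.9%), and in the Sf3 family 1 rose (7.69%) and 2 fell (15.4%).

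Sf3b5 fell by a further 1.08 between these times (adjusted p = 0.00087), Hnrnpa2b1 1395561_at by 0.90 (adjusted p = 0.00079), Hnrnpm by 0.86 (adjusted p = 0.0027), Sf3b6 by 0.60 (adjusted p = 0.0016) and Hnrnpr by 0.45 (adjusted p = 0.0035). Hnrnpm was above the heart-beating mean at 16 h by 0.25, which did not pass the test (adjusted p = 0.36), and below it at 30 h. Among the rises were Srsf11 1382056_at with 0.75 (adjusted p = 0.0033), Hnrnpc with 0.58 (adjusted p = 0.00065), Srsf1 1374072_at with 0.56 (adjusted p = 0.014) and Sf3a2 with 0.36 (adjusted p = 0.0074). Leaving out 16 h replicate 1 lowered the number of rises from 11 to 3, with Srsf1 (adjusted p = 0.078), Srsf2 (0.083), Srsf6 1371999_at (0.051) and Hnrnpu 1370171_at (0.05018) among those lost. The 5 falls just named and the rises of Srsf11, Hnrnpc and Sf3a2 stayed called whichever array was left out.

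Other genes of the splicing machinery were read with 1 probe set per gene, the brightest. Of 55 measured core spliceosome genes outside these families, 16 were higher (29.1%) and 5 lower (9.09%) at 30 h, and 1 was higher at 16 h. Prpf3, of the particle that joins U4 and U6, rose by 0.67 (adjusted p = 0.00034), Ctnnbl1 by 0.54, Prpf4b, a kinase, by 0.53, and the helicase gene Ddx46 was the one higher at 16 h, by 0.49 (adjusted p = 0.0080). Bud31 fell at 30 h by 0.88 (adjusted p = 0.00047). Of 49 measured splicing regulators, 18 were higher (36.7%) and 3 lower (6.12%) at 30 h, against 12.5% and 10.5% of all genes, with a median log2 difference of 0.17 beside 0.01 for all genes. Syncrip, the relative of Hnrnpr, rose by 0.93 (SE 0.08, adjusted p = 1.6e-05), Rbm25 by 0.55 (adjusted p = 0.0010) and Ptbp3 by 0.45 (adjusted p = 0.0015), while Rbm8a, of the exon junction complex, fell by 0.79 (adjusted p = 0.0011). At 16 h 4 regulators were higher and none lower, among them Khdrbs1 with 0.43 and Ptbp3 with 0.41.

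Of the kinases and partners of SR proteins 3 of 13 genes were higher at 30 h (23.1%) and none lower, against 12.5% and 10.5% of all genes, so that the share called in either direction was near that of all genes. Top1, a topoisomerase that also phosphorylates SR proteins, rose by 0.86 (SE 0.08, adjusted p = 1.9e-05), and Clk4, a kinase that releases SR proteins from speckles, by 0.33 (adjusted p = 0.018). Clk4 was higher at 16 h too, by 0.41 (adjusted p = 0.021). Prpf4b, counted above as well, was the third.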

How the data were processed

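RNA of 12 hepatocyte preparations was read on Affymetrix rat arrays. The authors deposited a log2 signal for each probe set and array, made with RMA, per the submitters' processing notes. These notes also name limma, but no versions or settings. Signals ran from 2.99 to 14.51 with array medians of 5.83 to 5.90, and the number of arrays limits the precision. A level is relative to the rest of its array. The table held 31099 probe sets, and its 57 controls stayed out of the tests. No gene symbol was given for 9780 of those tested, and several for 436, in the platform annotation.

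The 4 group means were estimated together from the 12 arrays by limma 3.58.1 under R 4.3.3, using lmFit and eBayes, with 8 residual and 4.93 prior degrees of freedom. P-values were adjusted by Benjamini-Hochberg over all probe sets. No filter and no further normalization was applied. Detection calls were not used here. The script was tested on simulated data. The labels' replicate numbers were checked and gave no sign that they pair the arrays, which does not exclude a pairing.

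The members, lists and tests were chosen with earlier results of these data known. Named were the 8 largest rises and 8 largest falls per comparison among called members whose groups did not overlap, all probe sets of genes called both ways, the 3 brightest probe sets per family, the 3 smallest p at 4 h, and for other splicing lists up to 4 called genes at 30 h and 2 at 16 h. Other members were named after their values were seen. Alternatives were 3 scalings, the brighter 50% of probe sets, gene-level values, a variance trend, array weights, only the groups compared, a replicate block, the Gapdh covariate, and fits without the 30 h arrays or without each array.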

Additional observations from a re-analysis of the deposited data

Results flagged for a closer look

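For 17 members the effects at 30 h and at 16 h, both against heart-beating donors, differed in limma's test of 30 h against 16 h. The effect at 30 h was lower for Sf3b5 by a log2 difference of -1.08, for Hnrnpa2b1 1395561_at by -0.90, for Hnrnpm by -0.86, for Sf3b6 by -0.60, for Hnrnpr by -0.45 and for Hnrnpa1 1387872_at by -0.41. It was higher for Srsf11 1382056_at by 0.75, for Hnrnpc by 0.58, for Srsf1 1374072_at by 0.56, for Srsf6 1371999_at by 0.42, for Srsf2 1371838_at by 0.41 and for Sf3a2 by 0.36. Smaller differences were 0.35 for both Hnrnpu 1370171_at (0.3487) and Srsf6 1372075_at (0.3455), 0.31 for Srsf6 1383466_at, 0.30 for Srsf7-ps4 and 0.26 for Srsf10 1382052_at. The call of Srsf10 was lost without any array at 16 h or without 30 h replicate 2 or 3 (adjusted p from 0.052 to 0.099), and that of Hnrnpa1 without 16 h replicate 1 or 3 or 30 h replicate 1 or 3 (from 0.051 to 0.090). For Srsf6 the call of 1372075_at was lost without 16 h replicate 1 (0.083) or 3 (0.052), and that of 1383466_at without 16 h replicate 1 (0.065) or 2 (0.061) or 30 h replicate 1 (0.053). Without 16 h replicate 1 every higher call was lost except those of Srsf11, Hnrnpc and Sf3a2. The call of Srsf2 was lost without 30 h replicate 1 too (0.057).

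Among the 8 probe sets that name a member beside another symbol, and so were not counted, 2 fell at 30 h in limma. The dimmer probe set of Hnrnpk, a poly(C)-binding hnRNP, and its pseudogene had a log2 difference of -0.50 (adjusted p = 0.0038). It went from 9.96 ± 0.03 (SD, n = 3) in heart-beating donors to 9.46 ± 0.26 at 30 h. The brighter probe set of the same symbols differed by -0.13 and was not called (adjusted p = 0.35). The brighter probe set of Srsf3 and a second locus had -0.39 (adjusted p = 0.039), while the dimmer one had 0.19 and was not called (adjusted p = 0.33). Which of the loci gave the signal was not tested.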

How the results depend on the processing

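The 4 h counts were 0 under all alternatives. At 16 h, members called higher numbered 4 as reported, 2 with cyclic loess, 1 with a further quantile normalization, 9 with array weights, 2 by the brightest probe set of each gene and 1 with the Gapdh covariate. Those called lower numbered 2 as reported, 1 in the brighter 50% of probe sets, 1 by brightest probe set, 1 by gene mean, 7 with array weights and 0 with the covariate. At 30 h, 23 higher became 14 by gene mean and 0 with the covariate, and 16 lower became 10 by brightest probe set, 9 by gene mean, 10 with only the groups compared and 0 with the covariate. Between 16 and 30 h, 11 higher became 17 with a further quantile normalization, 6 by brightest probe set, 7 by gene mean, 7 with only the groups compared and 0 with the covariate, and 6 lower became 0 with it. The F test's 38 became 25 by brightest probe set, 21 by gene mean and 3 with the covariate. Counts by gene are out of 47 genes, not 75 probe sets.

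Leaving out single arrays gave 0 to 4 higher members and 0 to 3 lower ones at 16 h. For 30 h the ranges were 13 to 23 higher with 10 to 18 lower, and for 30 h against 16 h they were 3 to 14 with 5 to 9. The F test called 29 to 36. At 30 h 5 to 7 genes had unequal probe sets, and at 16 h 0 to 2 did. The Gapdh difference at 4 h, -0.01, ranged from -0.048 to 0.050 and was above 0 without heart-beating replicate 1 (0.02), heart-beating replicate 2 (0.005) or 4 h replicate 2 (0.050). At 16 h it lay between 0.57 and 0.76, and at 30 h between 1.42 and 1.67. For Actb these ranges were 0.20 to 0.53 (16 h) and 0.98 to 1.08 (30 h), with -0.19 to -0.05 for 4 h.

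With the covariate some named differences at 30 h changed sign, none of them called: Hnrnpu 1372823_at to -0.039, Sf3b5 to 0.14, Hnrnpm to 0.94, Snrpa1 to 0.27, Hnrnpab to 0.77, Hnrnpa2b1 1373540_at to -0.23 and Srsf10 1393946_at to 0.24, and Hnrnpm between 16 and 30 h to 0.039. Of named differences under single alternatives, called or not, 3039 kept their side of the threshold, 168 lost the call and 35 gained it. Another 8 that had been called reversed. Differences near 0 that were not called can have changed sign among the 3039. With the replicate number as a block, 2 members were higher at 16 h and other counts stayed within 1.5 times. Deviations of same-numbered arrays from their group means correlated at -0.27 to 0.11, with 2 of 18 pairs over 0.1. Of the 12 arrays 2 were closest to their own number. With group means of 3 arrays each, these values gave no sign of a pairing but cannot exclude one.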
